A study of Oryza sativa with 3 samples.

Results

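The regions described here are all 1752 peaks that lie on rice chromosomes 1 and 5, out of 10250 peaks in 3 lists. They were taken by chromosome name alone: 707 of the 4077 peaks of 93-11, 626 of the 3628 of LYP9 and 419 of the 2545 of PA64s. The peaks mark places where tags gathered in libraries of DNA captured through 5-hydroxymethylcytosine (5hmC). Genomic DNA came from young panicles of 3 to 4 mm, grown in the same test field and collected together, with 1 library per cultivar. LYP9 is a hybrid: its seed parent is PA64s, which is male-sterile, and its pollen parent is the indica line 93-11. No treatment separates the groups, and the labels name no further allele. No library was replicated, so a difference between cultivars has no replicate check and carries no p-value. The intervals given cover counting error only, and they are too narrow where peaks gather, because neighbouring peaks are not independent.

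5hmC is formed when a methyl group on cytosine is oxidised. In animals the TET enzymes carry out this step. Plants have no clear counterpart of these enzymes, and 5hmC in plant DNA is scarce. For capture, a glucosyltransferase attaches a tagged glucose to 5hmC, and the tag is pulled out on beads. Peaks were called without a control library, so a place that draws tags for any other reason is listed in the same way. Chromosomes 1 and 5 are a known pair: long stretches of them descend from the same ancestral chromosome, copied in a genome duplication before the grasses diverged. The members are named by position in the coordinates of the files, counted from 1. The labels and file headers name no genome build, so no genes are assigned and the duplicated partner segments were not matched to each other.

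Chromosome 5 carried peaks at 2.04 to 2.14 times the density of chromosome 1 in the 3 lists. On chromosome 1 there were 284 peaks for 93-11, 259 for LYP9 and 171 for PA64s. Chromosome 5, the shorter one, held 423, 367 and 248 in the same order. Taking the last peak end as chromosome length, 43.0 Mb and 29.9 Mb, chromosome 1 had 6.60 peaks per Mb in 93-11 (95% Poisson interval 5.85 to 7.41), LYP9 had 6.02 (5.31 to 6.80) and PA64s 3.97 (3.40 to 4.62). The densities of chromosome 5 were 14.1 (12.8 to 15.6), 12.3 (11.1 to 13.6) and 8.30 (7.30 to 9.40). The density of chromosome 5 over that of chromosome 1 was 2.14 in 93-11 (1.84 to 2.50), 2.04 in LYP9 (1.74 to 2.40) and 2.09 in PA64s (1.71 to 2.55). The intervals of the ratio lay above 1 in all 3 lists and covered one another. Among peaks with a −log10 p, the score given by the authors' peak caller, of at least 15.35, the median over the pooled lists, the ratio was larger. It was then 2.70 in 93-11 (2.13 to 3.43), 2.77 in LYP9 (2.15 to 3.60) and 3.31 in PA64s (2.45 to 4.51).

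**Figure D1:**
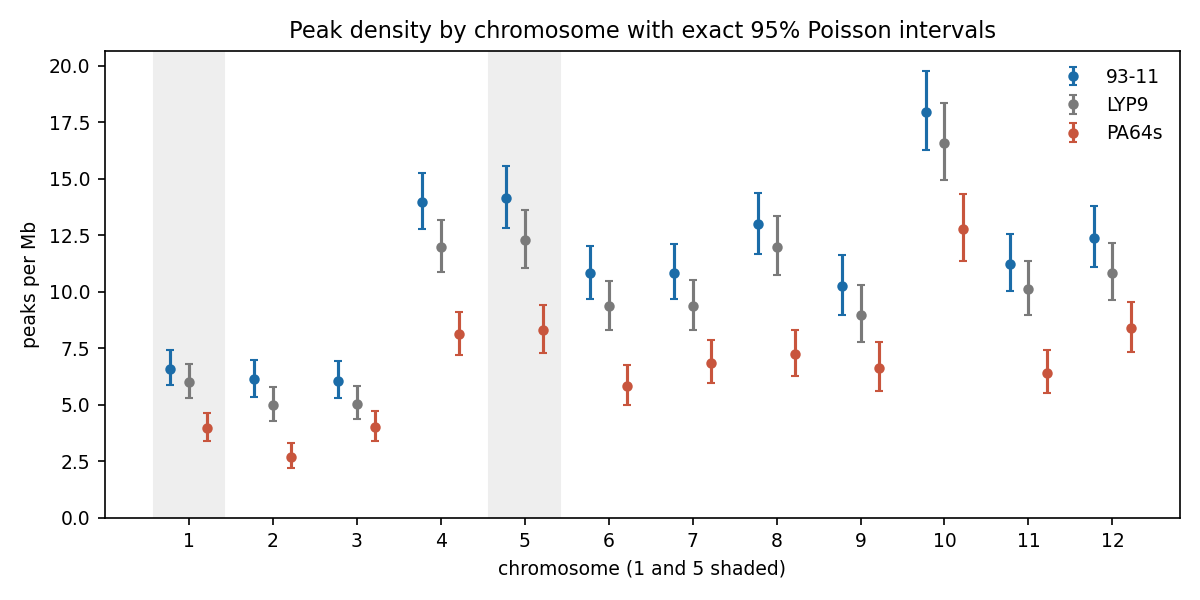
Peaks per Mb (y axis) on each of the 12 nuclear chromosomes (x axis) in 93-11, LYP9 and PA64s, with exact 95% Poisson intervals as bars; chromosomes 1 and 5 are shaded. Chromosome 5 stands at 14.1, 12.3 and 8.30 peaks per Mb, and chromosome 1 at 6.60, 6.02 and 3.97.

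Among the 12 nuclear chromosomes, chromosome 5 ranked at place 2 in density in 93-11 and LYP9 and at place 3 in PA64s. Chromosome 1 ranked at place 10, 10 and 11. The pooled density of the other chromosomes was 10.9, 9.60 and 6.63 peaks per Mb in the same order, so the pair lay on either side of it in each list. The order of the cultivars was the same on both chromosomes. 93-11 had 1.66 times as many peaks as PA64s on chromosome 1 and 1.71 times as many on chromosome 5, although PA64s had the deepest library, with 11948210 tags against 10007148 for 93-11 and 10078296 for LYP9. On the other nuclear chromosomes 93-11 had 3263 peaks and PA64s 1977, so this order is not particular to the pair.

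The peaks of chromosome 5 gathered in a broad band and in a short block at the end of the chromosome, while those of chromosome 1 were thickest in a wider and thinner band with 1 narrow stretch inside it. The bands were delimited after the counts were seen. From 8 to 12 Mb chromosome 5 held 39.01%, 39.2% and 36.3% of its peaks in 93-11, LYP9 and PA64s, at 41.3, 36 and 22.5 peaks per Mb. From 12 to 21 Mb chromosome 1 held 41.9%, 46.7% and 48.0% of its peaks, at 13.2, 13.4 and 9.11 peaks per Mb. A window of 1 Mb was called dense when it held at least 3 times the median of all nuclear windows of its list, which meant 21 peaks in 93-11, 18 in LYP9 and 9 in PA64s. Of the 44 windows of chromosome 1, 1, 2 and 1 were dense in 93-11, LYP9 and PA64s. Of the 30 windows of chromosome 5 it was 7, 7 and 8, and 7 of them were dense in all 3 lists. Dense windows held 13.0%, 23.2% and 25.1% of the chromosome 1 peaks in 93-11, LYP9 and PA64s. They held 60.8%, 64.0% and 71.8% of those of chromosome 5. The number of dense windows depends on this threshold, but chromosome 5 had more of them than chromosome 1 in each list under each window setting tried.

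**Figure D2:**
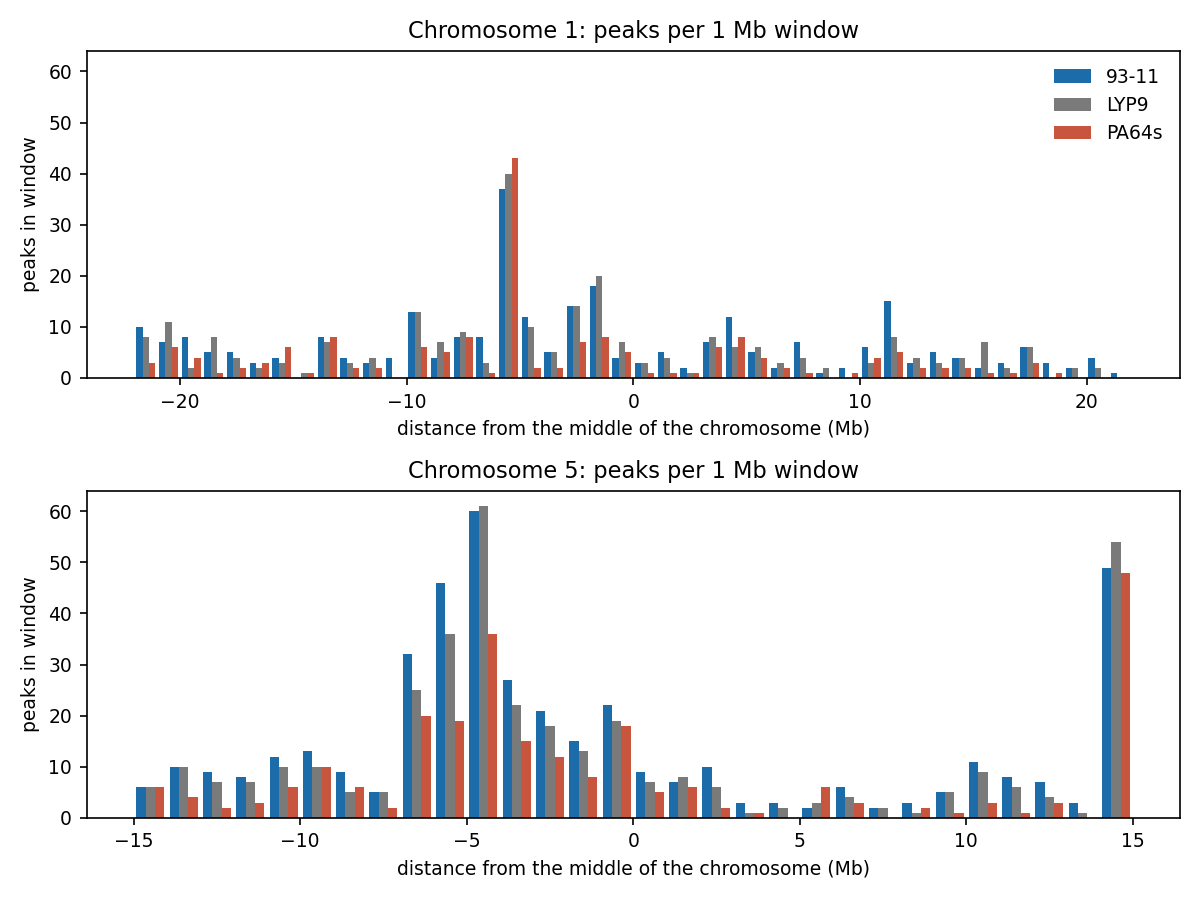
Peaks in each 1 Mb window (y axis) by distance from the middle of the chromosome in Mb (x axis), for 93-11, LYP9 and PA64s side by side; chromosome 1 is above and chromosome 5 below. The tallest bars of chromosome 1 are 37, 40 and 43 peaks in 1 window, and chromosome 5 shows a band reaching 60, 61 and 36 peaks and a last window of 49, 54 and 48.

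On chromosome 1 the densest window ran from 16 to 17 Mb, and its peaks numbered 37 for 93-11, 40 for LYP9 and 43 for PA64s. It was 1 of 5 windows of that chromosome in which PA64s had more peaks than 93-11. In 35 of the 44 windows 93-11, which had the longer list, had more, and in 4 they were equal. The next windows by the sum of the lists ran from 20 to 21 Mb, with 18, 20 and 8 peaks, and from 19 to 20 Mb, with 14, 14 and 7. The 35 windows outside the band from 12 to 21 Mb had a median of 4, 3 and 2 peaks.

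On chromosome 5 the band of dense windows ran from 8 to 13 Mb and had its maximum from 10 to 11 Mb, with 60 peaks for 93-11, 61 for LYP9 and 36 for PA64s. The last window, from 29 Mb to the end, held 49, 54 and 48 peaks. The window from 9 to 10 Mb held 46, 36 and 19. The parents thus differed by more than 20 peaks at 9 to 10 Mb and by 1 peak in the last window. 93-11, which had the longer list, had the larger count in 28 of the 30 windows and PA64s in 1.

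Counts per window ran more nearly parallel between lists on chromosome 5 than on chromosome 1. As a description over 30 windows of chromosome 5, Spearman's rho was 0.952 between 93-11 and LYP9, 0.849 between PA64s and LYP9 and 0.817 between the parents. Over the 44 windows of chromosome 1 it was 0.744, 0.722 and 0.70. Windows of a chromosome share its mappability and sequence, and the sparse windows of chromosome 1 hold few counts. LYP9 lay within the range of its parents in 25 of the 30 windows of chromosome 5 and in 23 of the 44 windows of chromosome 1. The median count per window in 93-11 and PA64s was 9 and 4.5 on chromosome 5 but 5 and 2 on chromosome 1. Parental counts that lie close leave LYP9 little room between them, and its whole list was also between theirs in length. These numbers therefore do not compare the hybrid between the chromosomes.

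Both chromosomes were divided into 5 equal parts to set the profiles side by side. The second part held the largest share on each: 32.0%, 33.6% and 41.5% of the chromosome 1 peaks and 41.4%, 41.1% and 38.7% of the chromosome 5 peaks in 93-11, LYP9 and PA64s. The fourth part of chromosome 5 was the emptiest, with 19, 13 and 10 peaks on 5.98 Mb. That part of chromosome 5 had 3.18, 2.17 and 1.67 peaks per Mb, and the fourth part of chromosome 1 had 6.16, 4.07 and 3.02. There the order of the chromosomes was thus turned. The ends differed too: the last part held 10.9%, 10.8% and 6.43% of the peaks of chromosome 1 and 19.6%, 21.5% and 23.4% of those of chromosome 5.

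Neighbouring peaks stood closer together on chromosome 5. The median gap between them was 7.36, 7.19 and 6.81 kb in 93-11, LYP9 and PA64s, against 43.6, 37.3 and 29.8 kb on chromosome 1. A gap of 1 kb or less separated 26.5%, 27.6% and 27.5% of neighbours on chromosome 5 while on chromosome 1 it was 16.6% in 93-11, 17.1% in LYP9 and 34 of 170 gaps in PA64s.

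Peak length barely differed between the chromosomes. The median was 105.5 bp in 93-11 (95% order-statistic interval 101 to 114), 100.0 bp in LYP9 (96 to 109) and 103 bp in PA64s (98 to 112) on chromosome 1. On chromosome 5 it was 105 bp (102 to 112), 107 bp (102 to 112) and 109 bp (104 to 115). The intervals overlapped in each list. The shortest peaks had 83 bp in 93-11 and 81 bp in LYP9 and PA64s, the minimum set by the peak caller. The medians lay not far above it, which limits how much they could differ downwards. Peaks of 200 bp or more, a length at the lower end of the sheared fragments, made up 14.1%, 11.6% and 11.7% on chromosome 1 and 12.8%, 12.5% and 13.3% on chromosome 5.

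The longest peak of 93-11 and LYP9 was missing from PA64s on chromosome 1 but not on chromosome 5. On chromosome 1 a peak of 2020 bp, from 33545739 to 33547758, reached 91 tags in 93-11, and its LYP9 counterpart of 1985 bp reached 66. Its fold enrichment, the ratio to the local background, was 5.81 and 6.73 in these lists, below their chromosome 1 medians of 8.45 and 8.59. PA64s had no peak there, and its nearest one was 15.0 kb away. The longest PA64s peak of chromosome 1 had 375 bp, and the next, of 353 bp from 26023757, lay in a region common to all lists. On chromosome 5 the longest peak of each list recurred in the others. The one from 10190029 in 93-11 measured 749 bp, with counterparts of 605 bp in LYP9 and 752 bp in PA64s. Its pileups were 54, 48 and 53 tags. The next longest 93-11 peak, of 707 bp from 25304910, had no counterpart among the longest peaks of LYP9 or PA64s.

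Peaks were higher on chromosome 5, relative to the size of the library. The pileup counts the tags, after extension, that cover the summit. The relative pileup is that count per 1000000 tags of the library. Its median on chromosome 1 was 2.05 in 93-11 (1.90 to 2.20), 1.98 in LYP9 (1.89 to 2.08) and 1.84 in PA64s (1.76 to 1.92). On chromosome 5 it was 2.40 (2.20 to 2.60), 2.38 (2.18 to 2.58) and 2.34 (2.18 to 2.68). The ratio of the medians, chromosome 5 over 1, was 1.17, 1.20 and 1.27. The intervals did not overlap in LYP9 and PA64s and met at 2.20 in 93-11. The upper quartile differed more, at 2.90, 2.73 and 2.39 on chromosome 1 and 3.80, 3.77 and 3.60 on chromosome 5. On the other chromosomes pooled the median was 2.40, 2.38 and 2.18.

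**Figure D3:**
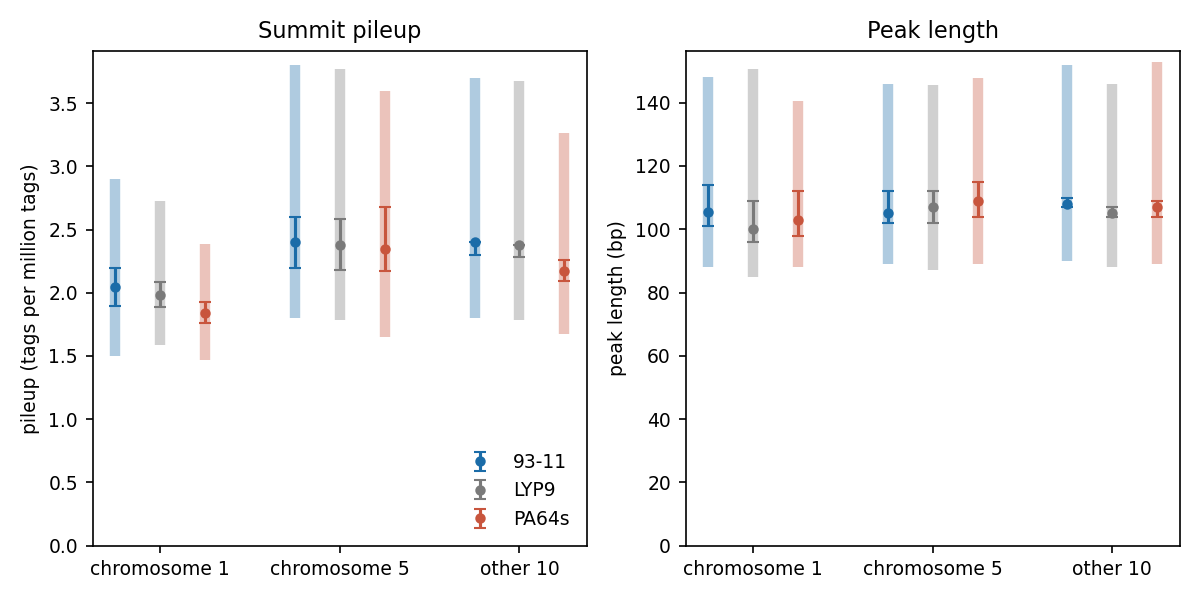
Relative summit pileup in tags per 1000000 library tags (left, y axis) and peak length in bp (right, y axis) on chromosome 1, chromosome 5 and the other 10 nuclear chromosomes pooled, for each list. Points are medians with 95% order-statistic intervals and pale bars run between the quartiles; chromosome 1 is lowest in pileup at 2.05, 1.98 and 1.84, while the length medians lie between 100.0 and 109 bp.

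The local background moved in the same direction as the pileup. Pileup divided by the deposited fold enrichment gives the background MACS used, and its median was 2.13 tags in 93-11, 2.09 in LYP9 and 2.67 in PA64s on chromosome 1, against 2.70, 2.58 and 2.92 on chromosome 5. The lowest background of any peak on either chromosome was 2.13, 2.09 and 2.48 tags in the same order. The chromosome 1 medians of 93-11 and LYP9 stood at that floor, which differed between the libraries, and that of PA64s lay slightly above it. The median fold enrichment was 8.45, 8.59 and 7.38 on chromosome 1 and 8.21, 8.60 and 8.46 on chromosome 5. In 93-11 and LYP9 the folds of the chromosomes were thus close, and in PA64s the interval on chromosome 1 (6.85 to 7.86) overlapped that on chromosome 5 (7.74 to 8.92) by a small margin. The part of the background in the higher pileups was not tested.

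High scores were also less frequent on chromosome 1. Peaks of at least 20 made up 25.4% in 93-11 (exact 95% interval 20.4 to 30.8), 25.1% in LYP9 (19.9 to 30.8) and 20.5% in PA64s (14.7 to 27.3) there. On chromosome 5 they made up 35.7% (31.1 to 40.5), 34.6% (29.7 to 39.7) and 41.9% (35.7 to 48.3).

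The peaks of chromosome 5 were found in more than 1 cultivar more often than those of chromosome 1, and the difference was widest where PA64s was involved. Peaks counted as shared when they overlapped by 1 bp or more. Of the PA64s peaks, 39.8% (68 of 171, exact 95% interval 32.4 to 47.5) were found in 93-11 on chromosome 1 and 72.6% (180 of 248, 66.6 to 78.0) on chromosome 5. The shares found in LYP9 were 42.7% (35.2 to 50.5) and 74.2% (68.3 to 79.5). The differences were 32.8 percentage points (95% Newcombe interval 23.3 to 41.5) and 31.5 (22.0 to 40.3). Of the 93-11 peaks, 23.6% (18.8 to 29.0) were found in PA64s on chromosome 1 and 42.6% (37.8 to 47.4) on chromosome 5. Of the LYP9 peaks, 28.2% (22.8 to 34.1) and 49.9% (44.6 to 55.1) were found in PA64s.

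Sharing between 93-11 and the hybrid differed less. Of the 93-11 peaks, 57.4% (51.4 to 63.2) were found in LYP9 on chromosome 1 and 64.3% (59.5 to 68.9) on chromosome 5, a difference of 6.91 points whose interval (-0.399 to 14.2) included 0. Of the LYP9 peaks, 63.7% (57.5 to 69.6) and 74.9% (70.2 to 79.3) were found in 93-11, a difference of 11.2 points (3.92 to 18.5). That difference was not seen among stronger peaks, at -0.547 points, (-8.70 to 9.02), when only peaks with a score of 15.35 or more, the overall median, were kept.

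Chromosome 1 was last of the 12 nuclear chromosomes in each of the 4 shares that involve PA64s. The other 10 had 57.4% to 75.3% of their PA64s peaks in 93-11 and 26.4% to 53.0% of their 93-11 peaks in PA64s. In the shares between 93-11 and LYP9 chromosome 1 stood at place 9 and 11. Chromosome 5 stood between place 2 and place 5 in all 6.

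Strong peaks were found again more often, and chromosome 1 had fewer of them, so the shares were also taken within classes of score, chosen after the values were seen. With 93-11 peaks found in LYP9 the chromosomes then lay close. For scores from 20 to 40 the shares were 95.8% of 48 peaks on chromosome 1 and 95.3% of 107 on chromosome 5. From 40 upwards they were 24 of 24 and 44 of 44. With PA64s the chromosomes stayed apart. Of 93-11 peaks from 20 to 40, 41.7% (20 of 48) were found in PA64s on chromosome 1 and 76.6% (82 of 107) on chromosome 5, a difference of 35.0 points (18.4 to 49.6). From 40 upwards it was 15 of 24 against 44 of 44, a difference of 37.5 points (19.3 to 57.3).

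The same held in the other direction. Of PA64s peaks from 20 to 40, 13 of 20 on chromosome 1 and 69 of 71 on chromosome 5 were found in 93-11, and from 40 upwards 9 of 15 and 33 of 33. Part of this gap came from the stretch of chromosome 1 from 16.7 to 17 Mb, where PA64s had many peaks of its own. Below a score of 10, 93-11 peaks were found in PA64s in 9.01% and 11.7% of cases, and that difference of 2.66 points had an interval (-5.53 to 10.7) that included 0. For PA64s peaks found in 93-11 a gap was present among weaker peaks too. Below 10 the shares were 12.5% and 28.8%, a difference of 16.3 points (1.64 to 31.1), and from 10 to 20 the difference was 15.7 points (0.715 to 29.96).

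**Figure D4:**
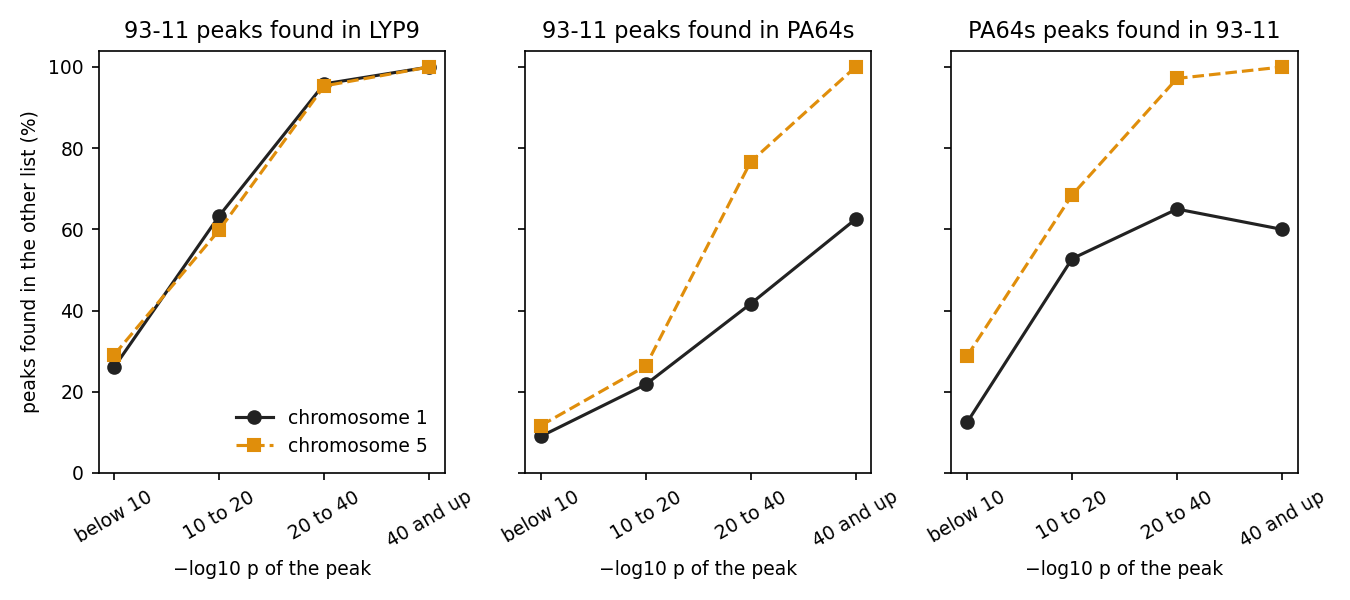
Share of peaks found in another list in percent (y axis) by class of −log10 p (x axis) on chromosome 1 (circles) and chromosome 5 (squares), for 93-11 peaks in LYP9, 93-11 peaks in PA64s and PA64s peaks in 93-11. The chromosomes run together in the first panel, reaching 100% on both, and part in the others, where the highest class holds 62.5% and 60% on chromosome 1 and 100% on chromosome 5.

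Overlapping peaks were merged into regions, 465 on chromosome 1 and 567 on chromosome 5. Regions in all 3 lists numbered 58 on chromosome 1 (12.5%, 9.61 to 15.8) and 169 on chromosome 5 (29.8%, 26.1 to 33.8), a difference of 17.3 points (12.4 to 22.1). On the other 10 chromosomes the share was 26.0%. Regions in PA64s alone were the counterpart, with 87 (18.7%) on chromosome 1 and 53 (9.35%) on chromosome 5, against 11.6% elsewhere. Regions in 93-11 and LYP9 without PA64s made up 22.6% and 18.0%, a difference whose interval (-9.57 to 0.318) included 0. Regions in 93-11 alone made up 23.9% and 24.9%.

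Membership also changed along each chromosome. The emptiest part of chromosome 5, from 17.9 to 23.9 Mb, had 38 regions, and 0 of them were in all 3 lists, where the last part had 42 of 108. On chromosome 1 the part from 17.2 to 25.8 Mb had the largest share of common regions, 18 of 100, and the first part the smallest, 6 of 82. Strength differed as well. 93-11 regions with a score of at least 20 numbered 0 and 34 in those parts of chromosome 5. In those of chromosome 1 they numbered 17 and 4, and the 4 were all found in PA64s and LYP9. The shares of these parts were not compared at equal score. Of the 93-11 regions with a score of at least 20 between 8.61 and 17.2 Mb of chromosome 1, 30 of 30 were found in LYP9 and 11 of 30 in PA64s. Between 5.98 and 12 Mb of chromosome 5 it was 66 and 57 of 69.

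The 5 strongest common regions of chromosome 1, by mean percentile of the score, included 3 that stood within 10 kb of each other. They began at 39121226, 39116073 and 39125953. The first, 315 bp long, had 93 tags at the summit in 93-11, 97 in LYP9 and 141 in PA64s, or 9.29, 9.62 and 11.8 as relative pileups. The second reached 83, 73 and 136 tags and the third 78, 72 and 110. In all 3 the PA64s library was the highest, also in relative pileup. A neighbouring 93-11 peak from 39112781 to 39112909, with 61 tags, recurred in LYP9 with 44 tags and had no PA64s counterpart.

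The remaining regions of that group were a 370 bp region from 26023747, with 94, 81 and 63 tags, and a 111 bp region from 6 to 116. The latter, at the first bases of the sequence, had 73 tags in 93-11, 73 in LYP9 and 60 in PA64s, with fold enrichments of 31.6, 30.04 and 21.8. On chromosome 5 the first peaks of 93-11 and LYP9 likewise began within the first 100 bases, at 75 and 58, but reached 21 and 27 tags. The first PA64s peak of chromosome 5 began at 127134.

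On chromosome 5 the strongest common regions were spread along the chromosome and alike in the lists. The region from 3907811 to 3908040 had 103, 101 and 92 tags in 93-11, LYP9 and PA64s and fold enrichments of 48.4, 48.3 and 37.1, the highest of either chromosome in the 3 lists. The region from 10680968 had 102, 103 and 87 tags, that from 29791164 had 93, 95 and 100, that from 13070924 had 97, 99 and 84 and that from 10145587 had 96, 90 and 98. Pileups in tags therefore varied little between the lists in these 5 regions. Relative to library size PA64s was the lowest in each, for example at 7.70 in the first region against 10.3 in 93-11.

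The strongest peaks in 1 list alone were stronger in PA64s on chromosome 1 than elsewhere on the pair. The PA64s-only peak from 8844253 to 8844380 had 59 tags and a −log10 p of 59.3, with the nearest 93-11 peak 14.4 kb and the nearest LYP9 peak 229 kb away. It was followed by PA64s-only peaks from 16894283, with 48 tags and 42.3, and from 16942201, with 56 tags and 39.5. Both of the latter lay in the dense stretch of chromosome 1. The strongest PA64s-only peak of chromosome 5, from 8829337, had 41 tags and 22.4 and lay 231 bp from a peak in both other lists. It was followed by those from 29744224, with 20.7, and from 12889621, with 16.4.

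The strongest lone peaks of 93-11 and LYP9 had lower scores than those of PA64s on chromosome 1, though not than those of PA64s on chromosome 5 throughout. In 93-11 they began at 34371246, 33547850 and 15427003 on chromosome 1, with −log10 p of 27.5, 25.8 and 19.0, and at 14232238, 9606080 and 8547587 on chromosome 5, with 20.97, 20.7 and 19.4. In LYP9 they began at 21471933, 12091190 and 3116909 on chromosome 1, with 18.0, 15.9 and 14.9, and at 10464160, 10144104 and 10560532 on chromosome 5, with 22.3, 21.1 and 19.4. Several lay close to a peak of another list, such as the 93-11 peak at 33547850, 124 bp from a LYP9 peak, and that at 9606080, 105 bp from a PA64s peak.

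Both gathered stretches were followed in detail and were picked after their values were seen. The last 194 kb of chromosome 5, from 29.7 Mb, held 47, 49 and 46 peaks in 93-11, LYP9 and PA64s. That was 242, 252 and 237 peaks per Mb, against 12.7, 10.7 and 6.80 on the rest of the chromosome. It accounted for 11.1%, 13.4% and 18.5% of the peaks of chromosome 5. Of the 56 regions in it, 38 were in all 3 lists and 2 in PA64s alone. In each list between 79.6% and 82.6% of these peaks were found in both other lists, against 35.1%, 41.2% and 64.9% on the rest of the chromosome. The last peaks ended at 29894266 in 93-11, 29894269 in LYP9 and 29894250 in PA64s.

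The block at the end of chromosome 5 also had high pileups. The median relative pileup was 4.00, 3.87 and 3.39 in 93-11, LYP9 and PA64s, against 2.20, 2.23 and 2.13 on the rest of the chromosome. The background there was high as well, at 3.95, 3.76 and 3.89 tags against 2.53, 2.38 and 2.77, so that fold enrichment differed less: 9.60, 9.55 and 9.15 against 7.98, 8.60 and 8.34. The part of the background in these pileups was not tested.

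The stretch of chromosome 1 from 16.7 to 17 Mb held 33, 36 and 41 peaks in 93-11, LYP9 and PA64s, with a different pattern of sharing. Its 67 regions included 7 in all 3 lists, 21 in 93-11 and LYP9 without PA64s and 27 in PA64s alone. Of the 93-11 peaks, 4 of 33 were found in no other list, and of the LYP9 peaks 1 of 36. For PA64s the share in no other list was 65.9%, against 46.2% on the rest of the chromosome. PA64s had a median background of 4.87 tags in the stretch against 2.54 outside it, while 93-11 had 2.13 in both places and LYP9 2.09 in both. The 93-11 and LYP9 values stood at the lowest background of their lists on chromosome 1, so a lower level could not appear. For PA64s that lowest value was 2.48 tags.

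**Figure D5:**
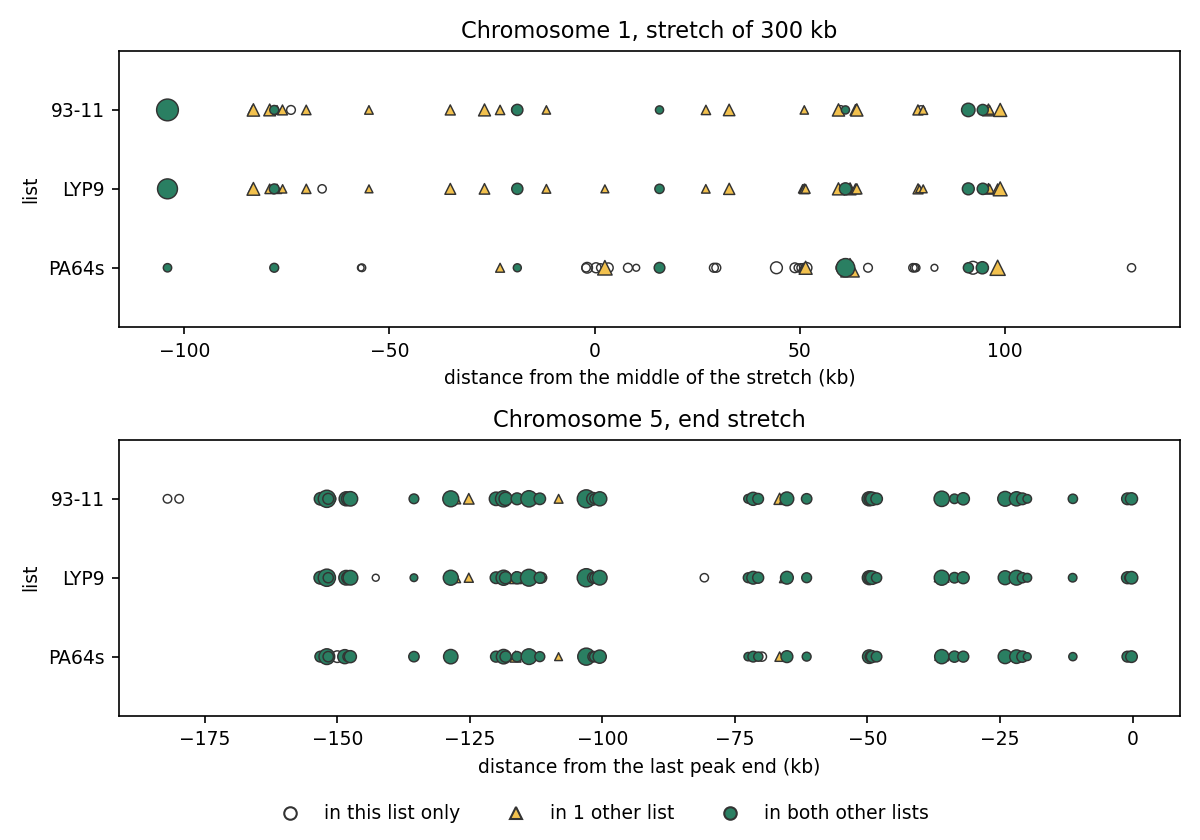
Peaks of each list (rows) in the 300 kb stretch of chromosome 1, by distance from its middle in kb, and in the last 194 kb of chromosome 5, by distance from the last peak end in kb. Symbol area follows the relative pileup, and filled circles are peaks found in both other lists, triangles in 1 other list and open circles in none: 7 regions of chromosome 1 and 38 of chromosome 5 are common to the 3 lists.

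Single regions of the chromosome 1 stretch showed the widest gaps between the parents among common regions. The region from 16745801 to 16746134 had 136 tags in 93-11, 115 in LYP9 and 24 in PA64s. In relative pileup PA64s was at 0.148 times the level of 93-11, and LYP9 at 0.840 times. The region from 16911029 to 16911322 went the other way, with 19, 42 and 117 tags, so that PA64s was at 5.16 times and LYP9 at 2.19 times the level of 93-11. In both regions LYP9 lay between its parents. On chromosome 5 the ratio of PA64s to 93-11 stayed between 0.419 and 1.39 over 169 common regions.

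Leaving out both stretches kept the contrast between the chromosomes. The share of PA64s peaks found in 93-11 was then 23.1 points higher on chromosome 5 (12.3 to 33.4) instead of 32.8. Among strong peaks the gap was narrower. Of 93-11 peaks from 20 to 40, 18 of 38 on chromosome 1 and 64 of 89 on chromosome 5 were found in PA64s, a difference of 24.5 points (6.15 to 41.6). From 40 upwards it was 13 of 18 against 32 of 32, or 27.8 points (9.12 to 50.9). Of PA64s peaks from 20 to 40, 10 of 13 and 56 of 57 were found in 93-11, a difference of 21.3 points (4.63 to 48.5). From 40 upwards it was 8 of 9 against 21 of 21, and the interval of that difference (-6.84 to 43.5) included 0. That difference was 11.1 points. With 9 peaks left on chromosome 1, it does not settle whether a gap among the strongest PA64s peaks remained outside the stretches.

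The next comparison set the level in the hybrid beside that in its parents where all 3 had a peak. In relative pileup, the median ratio of LYP9 to 93-11 was 0.952 on chromosome 1 (0.922 to 1.02, 58 regions) and 0.949 on chromosome 5 (0.937 to 0.969, 169 regions). The median ratio of PA64s to 93-11 was 0.764 (0.637 to 0.876) and 0.744 (0.718 to 0.771). PA64s was below 93-11 in 45 of 58 and 154 of 169 regions. LYP9 over the mean of the parents had a median of 1.10 (1.04 to 1.18) and 1.09 (1.07 to 1.11). The chromosomes were thus alike in these medians, and the spread was wider on chromosome 1, where the quartiles of PA64s over 93-11 were 0.574 and 0.981 against 0.654 and 0.877. Without scaling by tags, the ratio of PA64s to 93-11 was 0.912 and 0.889, and that of LYP9 to 93-11 was 0.959 and 0.956. The ratio of LYP9 to the mean of the parents was taken in relative pileup only. Its excess over 1 depends on that scaling, which lowers PA64s most. Summits of regions with 1 peak per list lay within 20 bp of each other in 34 of 57 regions on chromosome 1 and 116 of 163 on chromosome 5.

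Seen from the hybrid, chromosome 5 had more peaks also found in both parents. They made up 22.4% of LYP9 peaks on chromosome 1 (17.5 to 28.0) and 46.3% on chromosome 5 (41.1 to 51.6). Peaks found in 93-11 but not in PA64s made up 41.3% (35.3 to 47.6) and 28.6% (24.0 to 33.5). Peaks found in PA64s but not in 93-11 numbered 15 of 259 and 13 of 367, and 79 on each chromosome were in neither parent.

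Peaks of 1 parent absent from the other were looked up in LYP9. For 93-11 it was 106 of 217 on chromosome 1 (48.8%, 42.0 to 55.7) and 102 of 243 on chromosome 5 (42.0%, 35.7 to 48.5). For PA64s it was 16 of 103 (15.5%, 9.15 to 24.0) and 15 of 68 (22.1%, 12.9 to 33.8). On the other chromosomes pooled it was 868 of 1960 (44.3%) for 93-11 and 131 of 658 (19.9%) for PA64s. The order of the parents was thus the same there and is not particular to the pair. Between chromosomes 5 and 1 the differences were -6.87 points (-15.8 to 2.22) for 93-11 and 6.52 points (-5.09 to 19.1) for PA64s, and both intervals included 0. Between the parents the difference was 33.3 points on chromosome 1 (22.8 to 42.1) and 19.9 points on chromosome 5 (7.20 to 30.3). These values changed when only peaks with a score of at least 15.35 were kept. For 93-11 it was then 47 of 74 on chromosome 1 and 32 of 75 on chromosome 5, a difference of -20.8 points (-35.4 to -4.82). For PA64s it was 7 of 28 and 8 of 15, a difference of 28.3 points (-1.26 to 53.4). The difference between the parents was then 38.5 points on chromosome 1 (16.9 to 54.4). On chromosome 5 it turned, to -10.7 points, with an interval (-34.9 to 15.1) that included 0. The cut changes which peaks count as absent, so this turn does not describe strong peaks looked up in the full lists. There, 23 of 25 93-11 regions without PA64s and 0 of 2 PA64s regions without 93-11, with a score of at least 20, were found in LYP9.

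Strong regions, with a score of at least 20 in the parent, were examined by whether the other parent had a peak, a choice made after the values were seen. Of 37 such 93-11 regions without PA64s on chromosome 1, 35 were found in LYP9, and on chromosome 5 it was 23 of 25. The median ratio of LYP9 to 93-11 in relative pileup was 0.776 (0.716 to 0.883) and 0.794 (0.761 to 0.917). Where PA64s also had a peak, it was 0.925 (0.857 to 0.993) in 35 regions of chromosome 1 and 0.941 (0.908 to 0.967) in 123 of chromosome 5. The regions without PA64s were weaker in 93-11, at medians of 3.40 and 3.10 in relative pileup against 4.30 and 4.80, and the part of this in the lower ratio was not tested. All these regions were picked by their 93-11 score, and the 93-11 pileup is the divisor, so the choice itself favours ratios below 1. Only regions with a LYP9 peak have a ratio.

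On chromosome 1, 9 of the 93-11 regions without PA64s had a score of 40 or more, and chromosome 5 had 0. Of the 9, 4 lay in the stretch from 16.7 to 17 Mb. Among them all, the region from 12470713 to 12470848 had 64 tags in 93-11 and 30 in LYP9, or 0.465 times the relative pileup. The region from 16948850 had 49 tags in 93-11 and 56 in LYP9. The regions from 12944233 and 29347212 had 45 and 46 tags in 93-11 and 27 and 49 in LYP9, so that levels in the hybrid ranged from less than 0.5 times to slightly above those of 93-11. In the other direction, 13 strong PA64s regions of chromosome 1 had no 93-11 peak, and 4 of them were found in LYP9, at a median of 0.418 times the PA64s level. The 13 were picked by their PA64s score, which likewise favours a ratio below 1. Of these 13, 9 lay in the same stretch. Chromosome 5 had 2 such PA64s regions, and 0 were found in LYP9.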

How the data were processed

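5hmC capture libraries of panicle DNA from 93-11, LYP9 and PA64s, 1 each, were compared on chromosomes 1 and 5. The sheared DNA was tagged by a glucosyltransferase and click chemistry, per the labels' protocols; the antibody the labels name is described there for dot blots. BWA 0.5.8 is named in the submitters' processing notes, and the input named in the file headers held uniquely mapped, non-redundant reads. Peaks were called per library with MACS 2.0.9 at a q-value cutoff of 0.01, a background range of 10000 bp and no control, on tags of 81 bp, per the file headers. The deposited pileup is a coverage signal in whole tags, the deposited fold enrichment is a ratio to the local background and the −log10 p is the authors' score. The deposited positions in bp have no named build, and a gene table of another assembly was not joined to them.

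Peaks were assigned by chromosome name, and pileups were given per 1000000 tags of the header (relative pileup). Shares have Clopper-Pearson intervals, differences of shares Newcombe intervals, density ratios exact binomial intervals and medians order-statistic intervals, all at 95%. Calculations used Python 3.11.15, numpy 2.4.6, pandas 2.3.3, scipy 1.17.1 and matplotlib 3.10.9, and were tested on simulated data. Members, window rule and naming rule were chosen with earlier results of these data known. The rule named, per chromosome, the 5 common regions with the highest mean percentile of the score, the 3 strongest peaks of each list alone and the 3 densest windows of 1 Mb. Other regions, the score classes and the stretches were chosen after the values were seen.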

Additional observations from a re-analysis of the deposited data

How the results depend on the processing

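Of 141 recomputed values, 103 stayed within the interval of the reported value, or within 1.5 times of a count. The pileup ceiling, the length from first to last peak and scaling within a list could not move a value and are not counted. The ceiling was taken as 2 tags per bp of the extension length in the file header. Common regions above 90% of it were to be left out, but the highest summit, in PA64s on chromosome 1, stood at 87.0%. The part of such a ceiling in the lower relative pileups of PA64s was not tested. The 141 still include values fixed or nearly fixed in advance. Examples are the PA64s density ratio in lists cut to the length of PA64s and the unscaled ratio of LYP9 to 93-11. Limiting the lists to a −log10 p of at least 15.35 turned the difference in LYP9 peaks found in 93-11, chromosome 5 minus 1, to -0.547 points and raised that of 93-11 peaks found in PA64s to 30.9. It lowered the density ratio, chromosome 1 over 5, to 0.371 in 93-11, 0.361 in LYP9 and 0.302 in PA64s. Median relative pileups rose by construction, to 3.15, 3.27 and 2.68 on chromosome 1 and 3.80, 3.77 and 3.43 on chromosome 5, as did median lengths in LYP9 on chromosome 1 (115 bp) and in 93-11 on chromosome 5 (118 bp). Recurrence in LYP9 became 63.5% and 42.7% for 93-11 peaks on chromosomes 1 and 5, and 25% and 53.3% for PA64s peaks, which turned the order of the parents on chromosome 5. The limit held for all 3 lists, so absence from a parent or from LYP9 then meant no peak above it. Lists cut to equal length gave a density ratio of 0.412 in LYP9 and a difference of 26.9 points for 93-11 peaks in PA64s.

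Dense windows in 93-11, LYP9 and PA64s numbered 5, 12 and 17 on chromosome 1 and 15, 16 and 23 on chromosome 5 with 500 kb windows. At 2 times the nuclear median they numbered 4, 4 and 10 on chromosome 1 and 14 in PA64s on chromosome 5. Shifted windows gave 2 in 93-11 and 3 in PA64s on chromosome 1. Without the densest window, or without the picked stretches (added after seeing the data), the PA64s median relative pileup on chromosome 1 was 1.67. Without the stretches it was 2.13 on chromosome 5, and the difference of PA64s peaks found in 93-11 was 23.1 points. Merging peaks within 500 bp gave a median length of 118 bp in PA64s on chromosome 5. A distance of up to 500 bp gave a recurrence of 12% for PA64s peaks there. Unscaled pileups gave ratios of PA64s to 93-11 of 0.912 and 0.889. Unless the construction shows it, the cause was not tested. No paired analysis was possible because each cultivar had 1 library. Counts under about 20 peaks, such as the 15 PA64s peaks behind the 53.3%, give wide intervals.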
